A study of Mus musculus with 4 samples.

Results

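The genes described here encode the PGC-1 transcriptional coactivators and the nuclear receptors through which they act, with the corepressor that opposes them. They were followed in RNA sequencing of inguinal white adipose tissue, which lies under the skin of the mouse. The members were chosen by name: Ppargc1a, Ppargc1b and Pprc1 (coactivators), Nrip1 (corepressor), Esrra and Esrrg (estrogen-related receptors), Ppara, Ppard and Pparg (peroxisome proliferator-activated receptors) and Rxra (their heterodimer partner). The choice was made with earlier results of these data known. All 10 had a value among the 13677 genes measured. The series held 2 wildtype (WT) libraries and 2 libraries labelled FLCNKO, from mice described as an adipose knockout of Flcn, the folliculin gene. The driver of the knockout, the deleted part of the gene, and the strain, age, sex and diet of the animals are not stated in the labels. No label ties a library to a single animal, and every p-value here rests on library-to-library spread, which may be technical. The series asks how folliculin relates to browning of white fat through an alternate branch of mTOR signalling.

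PGC-1 proteins do not bind DNA themselves. They are recruited by estrogen-related receptors, which bind DNA as monomers or dimers without a known natural ligand, and by PPARs, which are activated by fatty acids and bind DNA together with a retinoid X receptor. In fat and muscle these factors switch on genes of mitochondrial respiration and fatty acid oxidation, while PPARG directs the fat cell program itself and NRIP1 (RIP140) holds oxidative genes down in white fat.

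Among the members with a higher transcript level in FLCNKO (below), Ppargc1a, Esrrg and Ppara had an entry in the RefSeq promoter table (build GRCm38.p6), as did 9 of the 10 members, Ppargc1b being the exception. Their sequences are shown because these genes moved together, so that the bases before their annotated starts can be compared. Capitals mark matches, on either strand, to the M-box TCATGTG bound by MiT/TFE factors, to TGACGT, the core of a cAMP response element, or to the NRF1 site, GCGCA and GCGC with any base between them. Bases within annotated exons are left out, except for Ppara, where the 30 bases around its match are printed. Of the 4 Esrrg starts in the table, the one shown is the start also found in a GENCODE transcript.
Ppargc1a (chr5:51567727-51567975, minus strand): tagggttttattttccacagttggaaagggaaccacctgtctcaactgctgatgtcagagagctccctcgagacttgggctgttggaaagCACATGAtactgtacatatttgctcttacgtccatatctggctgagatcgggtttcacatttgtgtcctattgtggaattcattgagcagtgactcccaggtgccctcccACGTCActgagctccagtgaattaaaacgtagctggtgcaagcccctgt
Esrrg (chr1:187997577-187997826, plus strand): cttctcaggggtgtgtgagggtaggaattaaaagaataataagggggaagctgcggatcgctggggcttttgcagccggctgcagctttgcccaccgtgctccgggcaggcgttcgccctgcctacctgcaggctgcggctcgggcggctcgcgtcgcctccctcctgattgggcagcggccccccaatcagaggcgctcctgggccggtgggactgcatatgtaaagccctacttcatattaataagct
Ppara (chr15:85735735-85735764, plus strand): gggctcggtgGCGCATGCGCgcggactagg

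Positions are counted backwards from the annotated start. In the windows of 300 bases (250 before and 50 after a start), the M-box letters began at -160 in Ppargc1a, and 3.77% of all 32851 windows in the table held them. The TGACGT letters began at -50 in Ppargc1a, against 7.51% of windows, and both of these motifs were added to the search after the Ppargc1a sequence had been seen. The NRF1 letters began at -31 in Ppara, against 4.6% of windows. No member window held the estrogen-related receptor element TCAAGGTCA (0.423% of windows), the PPAR element, a direct repeat of AGGTCA with any base between (0.0396%), the MiT/TFE site TCACGTGA (0.974%), the E-box CACGTG, which lies within that site (7.15%), the full cAMP element TGACGTCA (1.79%), its shorter form TGACGTC (3.21%) or the GABP site CCGGAAGT (3.89%). The receptor half-site AGGTCA lay in windows of Rxra, Pparg and Pprc1 (16.3% of windows), and TATAAA in windows of Pparg and of an Esrrg start not shown (13.6%). The searched TCAAGGTCA and the PPAR element contain AGGTCA, and TGACGTCA contains the shorter cAMP forms. Base composition differed between the printed promoters: of the 250 bases before the start, 48% were G or C in Ppargc1a with 5 CpG dinucleotides, 61.2% in Esrrg at the start shown with 16, and 76.4% in Ppara with 27. These matches are descriptions of letters in a window and not evidence of binding.

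Of the 10 members, 4 rose in FLCNKO and 0 fell (limma, Benjamini-Hochberg adjusted p under 0.05 over all 13677 genes). The 4 were Ppara, Esrrg, Ppargc1b and Ppargc1a, by 8.57-fold, 6.63-fold, 3.42-fold and 2.18-fold. Over all genes 0.98% were called higher and 0.614% lower. At an unadjusted p under 0.05, 5 members were higher and 1 lower, against 12.1% and 10.3% of all genes. The groups did not overlap for 5 members that were higher and 2 that were lower in FLCNKO, against 29.2% and 25.4% of all genes. All values are the deposited log2 values, and a log2 fold change is the FLCNKO mean minus the WT mean. The median absolute difference between the libraries of a group was 0.22 in WT and 0.23 in FLCNKO for the members, and 0.15 and 0.25 for all genes.

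**Figure D1:**
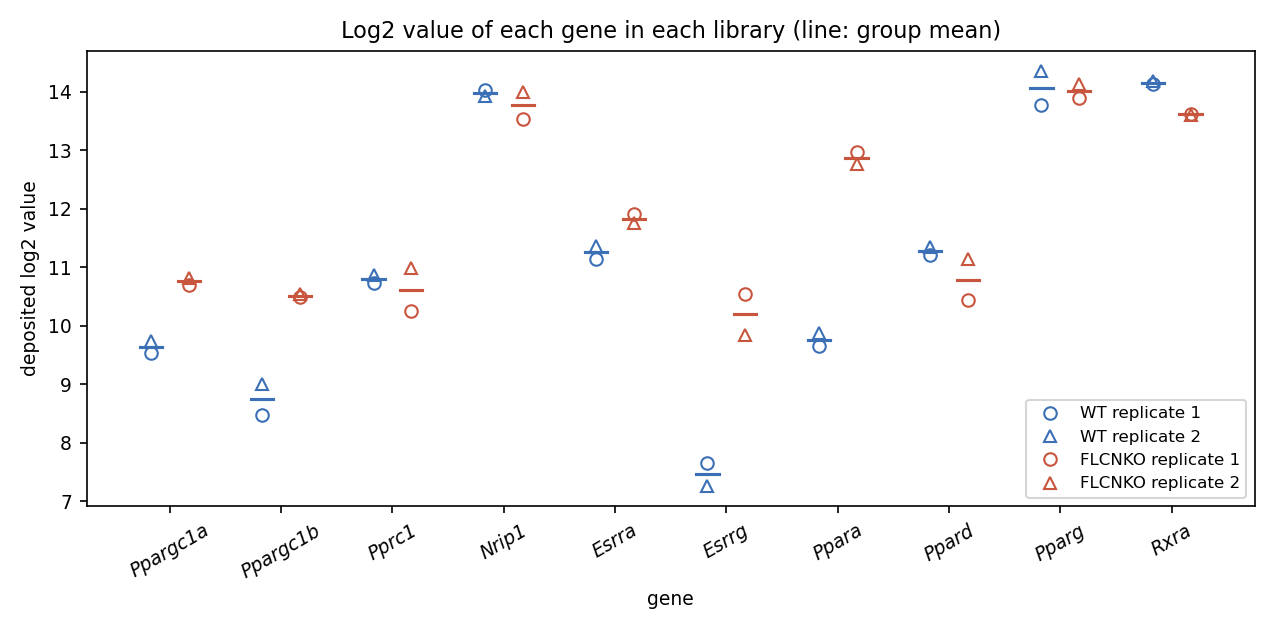
Deposited log2 value (vertical axis) of each of the 10 genes (horizontal axis) in the 4 libraries, with WT in blue and FLCNKO in red, circles for replicate 1, triangles for replicate 2 and a line at each group mean. Ppara, Esrrg, Ppargc1a and Ppargc1b lie higher in both FLCNKO libraries than in either WT library, while Pparg, Nrip1 and Pprc1 overlap.

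Flcn itself was at 12.36 and 12.21 in the WT libraries and at 12.35 and 12.12 in FLCNKO (limma adjusted p = 0.852). The deleted part is not stated and the tissue holds cells other than adipocytes, so this value does not check the labels, and the groups are called by their labels. Depth is unknown, since the libraries' values follow almost 1 distribution (medians 10.7636 to 10.7645). The labelled tissue showed its defining genes: the library medians of white adipocyte markers were 17.46 and 17.49 (WT) and 17.24 and 17.66 (FLCNKO), with Adipoq between 17.72 and 18.31.

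Within the coactivators, PGC-1α and PGC-1β transcripts rose and the third family member did not pass. Ppargc1a (ENSMUSG00000029167), the inducible coactivator of thermogenesis and mitochondrial biogenesis, was at 9.53 and 9.74 on the log2 scale in WT and at 10.70 and 10.82 in FLCNKO. Both FLCNKO libraries stood above both WT libraries, with a gap of 0.96 between the nearest ones. The FLCNKO mean exceeded the WT mean by 1.12 ± 0.15 (log2, SE, limma adjusted p = 0.0476). The SE of this and every other log2 fold change of a gene is limma's, with its variance moderated over all genes. Ppargc1b (ENSMUSG00000033871), which encodes the coactivator most tied to basal mitochondrial content and lipid metabolism, had 8.48 and 9.01 in WT and 10.49 and 10.54 in FLCNKO. The WT libraries differed by 0.53 and the FLCNKO libraries by 0.06, and the groups did not overlap. The mean difference was 1.77 ± 0.22 (log2, SE; limma adjusted p = 0.0438).

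Pprc1 (ENSMUSG00000055491), whose product PRC is a growth-regulated relative of PGC-1α, had 10.73 and 10.87 in WT and 10.25 and 10.99 in FLCNKO. The FLCNKO values lay on both sides of the WT values. The log2 fold change of Pprc1, -0.18 ± 0.26 (SE), had a 95% interval from -0.86 to 0.49 (limma adjusted p = 0.73), and it was 0.19 without FLCNKO replicate 1. Nrip1 (ENSMUSG00000048490), the corepressor, had 14.04 and 13.93 in WT and 13.54 and 14.00 in FLCNKO. FLCNKO replicate 1 was the lowest library and replicate 2 lay between the WT values. For Nrip1 this change came to -0.22 ± 0.18 (SE), with a 95% interval from -0.68 to 0.24 (limma adjusted p = 0.537), and to 0.02 without FLCNKO replicate 1.

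When any 1 of the 4 libraries was left out, limma called no gene at all, the members included. The group with 1 library left is then assumed to vary like the other group, with 1 residual degree of freedom. The log2 fold change of Ppargc1a then lay between 1.02 and 1.23 (adjusted p between 0.0927 and 0.336) and that of Ppargc1b between 1.51 and 2.04 (adjusted p between 0.104 and 0.246). For Esrrg it lay between 2.38 and 3.08 (adjusted p between 0.0648 and 0.246) and for Ppara between 2.99 and 3.21 (adjusted p between 0.0615 and 0.192). Without the trend of variance on mean expression, the adjusted p of all 4 was 0.14.

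Of the estrogen-related receptors, the gamma form rose and the alpha form did not pass. Esrrg (ENSMUSG00000026610), a receptor of highly oxidative tissues such as brown fat, heart and slow muscle, was at 7.66 and 7.27 on the log2 scale in WT and at 10.55 and 9.85 in FLCNKO. The groups were 2.19 apart at their nearest libraries, and FLCNKO replicate 1 was the highest. The difference of means was 2.73 ± 0.31 (log2, SE; limma adjusted p = 0.0405), and 0.431% of all genes had a larger one. Esrra (ENSMUSG00000024955), the broadly expressed receptor that PGC-1α uses for respiratory chain genes, had 11.15 and 11.37 in WT and 11.91 and 11.76 in FLCNKO. Its groups did not overlap, with a gap of 0.39. The mean difference of Esrra was 0.57 ± 0.14 (log2, SE) with a 95% interval from 0.22 to 0.92, which did not pass (limma adjusted p = 0.0991). Of its stretches of 31 bases, 2.31% also occur in transcripts of other genes, the highest share among the members.

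**Figure D2:**
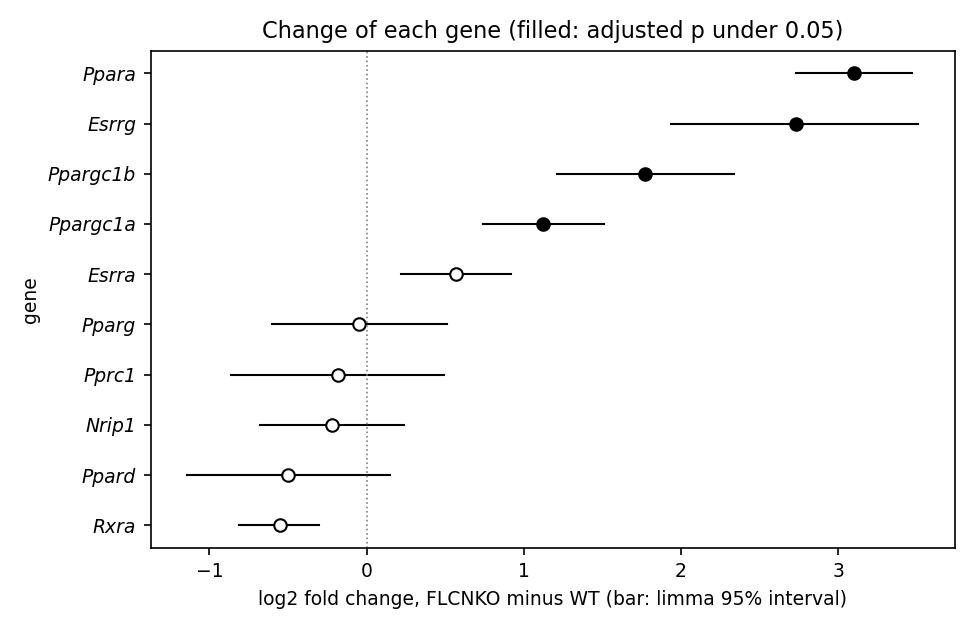
Log2 fold change (horizontal axis, FLCNKO minus WT) of each of the 10 genes (vertical axis) with its 95% limma interval, filled where the adjusted p was under 0.05. The 4 filled points run from 1.12 for Ppargc1a to 3.10 for Ppara, and the intervals of Pparg, Pprc1, Nrip1 and Ppard include 0.

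The PPAR receptors split. Ppara (ENSMUSG00000022383), the receptor of fatty acid catabolism, had 9.65 and 9.88 in WT and 12.97 and 12.76 in FLCNKO. The libraries of each group lay within 0.22 of each other, and the groups were 2.88 apart at the nearest. The FLCNKO mean was higher by 3.10 ± 0.15 (log2, SE; limma adjusted p = 0.0336), a change which 0.314% of all genes exceeded. Ppard (ENSMUSG00000002250), the widely expressed PPAR that also serves fatty acid oxidation, had 11.22 and 11.35 in WT and 10.44 and 11.14 in FLCNKO. Both FLCNKO libraries were lower, replicate 2 by a gap of only 0.08. The log2 fold change of Ppard, -0.50 ± 0.25 (SE), had a 95% interval from -1.14 to 0.15 (limma adjusted p = 0.318), with values of -0.15 without FLCNKO replicate 1 and -0.85 without FLCNKO replicate 2. Pparg (ENSMUSG00000000440), the master regulator of adipogenesis, had 13.78 and 14.35 in WT and 13.90 and 14.14 in FLCNKO. Both FLCNKO values lay inside the WT range. Its mean difference, -0.05 ± 0.22 (log2, SE), had a 95% interval from -0.60 to 0.51 (limma adjusted p = 0.925). Leaving out WT replicate 2 or FLCNKO replicate 1 turned its sign, to 0.24 and 0.07. The values are per gene, so the PPARG1 and PPARG2 transcripts, which start at different promoters, cannot be told apart.

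Rxra (ENSMUSG00000015846), the partner with which PPARs bind DNA, had 14.14 and 14.18 in WT and 13.62 and 13.61 in FLCNKO. It was lower in both FLCNKO libraries, with the closest libraries within a group of any member (0.04 apart in WT and 0.01 in FLCNKO). The log2 fold change of Rxra, -0.55 ± 0.10 (SE), had a 95% interval from -0.81 to -0.30 and missed the threshold (limma adjusted p = 0.0654). The other retinoid X receptors went the other way without passing. Rxrg had 10.53 and 10.40 in WT and 11.35 and 11.26 in FLCNKO (log2 fold change 0.84 ± 0.12, SE; limma adjusted p = 0.0526). Rxrb had 11.54 and 11.59 in WT and 11.79 and 11.70 in FLCNKO (0.18 ± 0.11, SE; limma adjusted p = 0.409).

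Changes were then compared between paralogues, taking in each library the log2 value of one gene minus that of its relative. Gene length cancels in the change of this difference. The differences of all 10 pairs did not overlap between the groups. The pairs share genes, so these are not 10 separate results. For Ppard minus Pparg, replicate 2 of WT and replicate 2 of FLCNKO were almost equal. Of all single genes, 29.2% were higher and 25.4% lower in FLCNKO without overlap. No such share is given here for other gene pairs. Each pair had a two-sided exact permutation p of 0.333, also after Benjamini-Hochberg adjustment over the 10 pairs. That is the smallest p that 2 libraries against 2 allow, so this test could not pass a threshold of 0.05. The change of Ppara minus that of Ppard was 3.60 ± 0.46, and minus that of Pparg 3.15 ± 0.28 (log2 units, SE). The SE of a pair comes from the 2 libraries per group alone, without moderation. It cannot be set beside the limma SE of a single gene. Ppard minus Pparg gave -0.45 ± 0.32, which was -0.24 without WT replicate 1, -0.22 without FLCNKO replicate 1, and -0.67 and -0.68 without WT or FLCNKO replicate 2.

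The change of Esrra minus that of Esrrg was -2.16 ± 0.41 (log2 units, SE). Ppargc1a minus Pprc1 gave 1.31 ± 0.31 and Ppargc1b minus Pprc1 gave 1.96 ± 0.39, and the change of Ppargc1a minus that of Ppargc1b was -0.65 ± 0.16. The last pair had differences of 1.05 and 0.73 in WT against 0.21 and 0.27 in FLCNKO. The change of Rxra minus that of Rxrb was -0.73 ± 0.04, and minus that of Rxrg -1.40 ± 0.09. Rxrb minus Rxrg gave -0.67 ± 0.09.

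To set levels between genes side by side, log2 of the length in kilobases of the longest protein-coding transcript was subtracted from each deposited value (a level, not a difference). No source used here says whether the deposited values already carried a correction for length. Across 13592 genes, Spearman's rho of mean value with length was 0.15. On this scale WT fat held Pparg highest at 12.98 ± 0.40 (SD, n = 2), followed by Rxra at 11.87 ± 0.03, Nrip1 at 11.01 ± 0.08, Esrra at 10.10 ± 0.16, Ppard at 9.57 ± 0.10, Pprc1 at 8.41 ± 0.10 and Ppara at 7.99 ± 0.16. The lowest levels were those of Ppargc1a at 6.94 ± 0.15, Ppargc1b at 6.87 ± 0.37 and Esrrg at 5.04 ± 0.28. Only Ppargc1a and Ppargc1b overlapped among neighbours in this order. Without the subtraction, Rxra had the highest WT mean, at 14.16 against 14.06 for Pparg.

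In FLCNKO the level per length of Ppara was 11.09 ± 0.15 (SD, n = 2), which moved it from the seventh place to the third, behind Pparg at 12.93 ± 0.17 and Rxra at 11.32 ± 0.01. Its libraries, 11.20 and 10.99, overlapped those of Nrip1, 10.56 and 11.03, and the latter also overlapped Esrra at 10.74 and 10.59. Per length, Ppargc1b at 8.65 ± 0.04 stood above Ppargc1a at 8.07 ± 0.08 in both libraries, while Pprc1 at 8.22 ± 0.52 overlapped Ppargc1a. Ppard was at 9.08 ± 0.50. Esrrg at 7.77 ± 0.49 had the lowest mean of the 10, as in WT, with a range that overlapped Ppargc1a and Pprc1. With the union of all exons as length, Pparg and Rxra stayed highest and Esrrg lowest in both groups, but Ppard at 7.88 then stood below Ppargc1a at 8.04 and Pprc1 at 7.96 in FLCNKO. With no length subtracted, Ppargc1a (10.70 and 10.82) stood above Ppargc1b (10.49 and 10.54) in both FLCNKO libraries. Ppara, with an FLCNKO mean of 12.86, then stood below Nrip1 at 13.77.

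**Figure D3:**
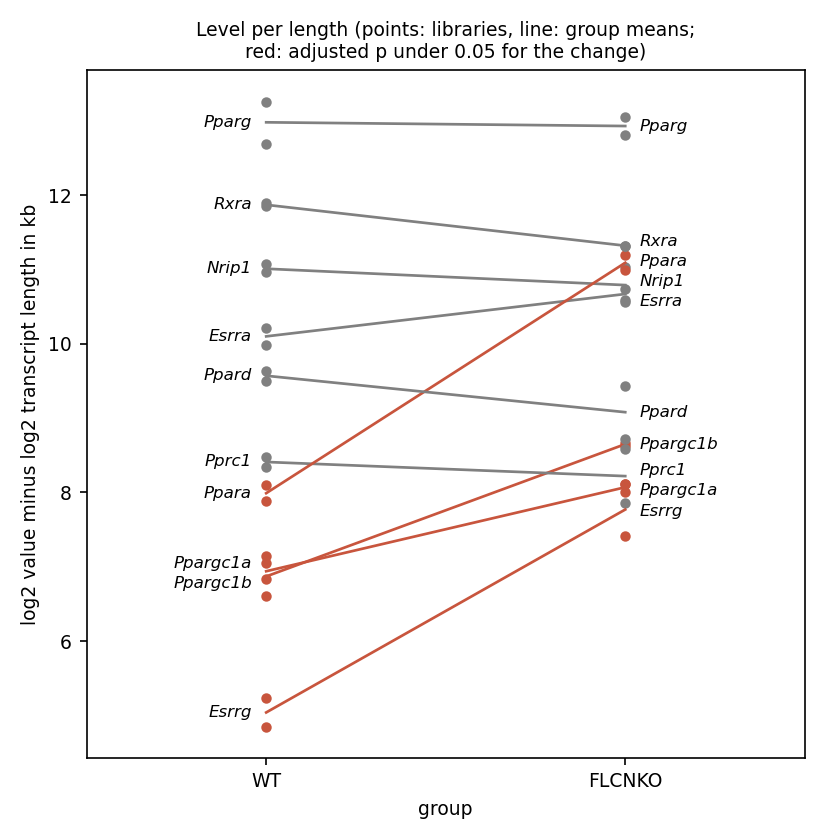
Deposited log2 value minus log2 of the transcript length in kilobases (vertical axis) in WT and FLCNKO (horizontal axis); points are libraries, lines join group means, and red marks genes with an adjusted p under 0.05. Ppara climbs from 7.99 to 11.09, close to Rxra, whereas Pparg stays near 13 in both groups (12.98 and 12.93).

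Genes of the same pathway came from lists drawn up from general knowledge, but with earlier results of these data known. Their counts and medians are therefore descriptions and not independent support for the members' changes. Among 14 measured nuclear receptors outside the members, 0 were called in either direction. With a replicate block, with robust estimation or among genes with a mean of at least 8, 1 was called. At an unadjusted p under 0.05 limma put 2 higher and 2 lower, against 12.1% and 10.3% of all genes. The median log2 fold change was -0.14 (-0.09 without FLCNKO replicate 2), against 0.00 over all genes. Besides Rxrg, the smallest p-values were those of the retinoic acid receptor gene Rarb (1.10 ± 0.27, SE; limma adjusted p = 0.1), the thyroid hormone receptor gene Thra (-0.39 ± 0.11; adjusted p = 0.135) and the clock repressor gene Nr1d1 (-0.78 ± 0.26; adjusted p = 0.168).

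Of 23 measured coregulators, coactivators and corepressors, limma called 0. At an unadjusted p under 0.05 it put 0 higher and 1 lower, against 12.1% and 10.3% of all genes. The median of the coregulators was -0.09 (-0.03 without WT replicate 1, -0.15 without WT replicate 2 and -0.16 without FLCNKO replicate 2). Without overlap, 9 had lower and 2 higher values, against 25.4% and 29.2% of all genes. Log2 fold changes were -0.38 ± 0.15 for Tbl1x, of a corepressor complex, -0.34 ± 0.15 for the coactivator gene Ncoa3 and 0.31 ± 0.13 for Ncoa4 (SE; limma adjusted p = 0.214, 0.264 and 0.253).

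The 23 genes known to act upstream of Ppargc1a, among them CREB coactivators, AMPK subunits and MEF2 and MiT/TFE factors, had a median log2 change of -0.04, or 0.04 when WT replicate 1 was left out. Limma called 0 of them, with 4 higher and 1 lower at an unadjusted p under 0.05, against 12.1% and 10.3% of all genes. Adrb3, the adrenergic receptor of fat cells, had 14.59 and 14.47 in WT and 15.14 and 15.19 in FLCNKO (0.63 ± 0.11, SE; adjusted p = 0.064). The kinase gene Mtor had a log2 fold change of 0.43 ± 0.11, the AMPK subunit gene Prkaa2 0.51 ± 0.17 and Rptor, of mTORC1, 0.38 ± 0.13 (limma adjusted p = 0.11, 0.171 and 0.188).

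Targets of the estrogen-related receptors and PGC-1 had a median log2 fold change of 0.81, against 0.00 over all genes. Of 25 measured, 2 rose and 0 fell (0.98% and 0.614% of all genes). At an unadjusted p under 0.05 limma put 19 higher and 0 lower, against 12.1% and 10.3% of all genes. In 20 of these targets both FLCNKO libraries exceeded both WT libraries, against 29.2% of all genes. The ones that rose were Ogdh, of the oxoglutarate dehydrogenase complex (15.28 and 15.29 in WT, 16.29 and 16.26 in FLCNKO; 0.99 ± 0.11, SE; limma adjusted p = 0.0404), and Dlat, of the pyruvate dehydrogenase complex (13.60 and 13.79 in WT, 15.17 and 14.76 in FLCNKO; 1.27 ± 0.17; adjusted p = 0.0478). The citric acid cycle gene Idh3b had 0.96 ± 0.15 (SE; adjusted p = 0.0556). The regulators of mitochondrial genes in this list, singled out after their values were seen, did not pass. Nrf1 had -0.21 ± 0.14, Tfam 0.13 ± 0.18, Tfb2m 0.40 ± 0.18, Gabpa 0.40 ± 0.14 and Tfb1m 0.86 ± 0.23 (SE; limma adjusted p = 0.452, 0.719, 0.275, 0.179 and 0.119).

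Targets of PPARα had a median log2 fold change of 1.10. Of 26 measured, 3 rose and 1 fell (0.98% and 0.614% of all genes). At an unadjusted p under 0.05 limma put 19 higher and 2 lower, against 12.1% and 10.3% of all genes. Ucp3, a mitochondrial carrier of muscle and brown fat, had 11.79 and 11.39 in WT and 13.97 and 13.61 in FLCNKO (2.20 ± 0.20, SE; adjusted p = 0.0336). Plin5, which coats lipid droplets in contact with mitochondria, had 10.98 and 10.80 in WT and 13.15 and 12.60 in FLCNKO (1.99 ± 0.21; adjusted p = 0.0387). Acot2, a mitochondrial acyl-CoA thioesterase, had 10.06 and 10.01 in WT and 11.81 and 11.55 in FLCNKO (1.65 ± 0.14; adjusted p = 0.0336).

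The PPARα target that fell was Vnn1, a pantetheinase that is a standard PPARα response gene in liver. It had 11.65 and 11.95 in WT and 9.34 and 9.73 in FLCNKO, a log2 fold change of -2.26 ± 0.19 (SE; limma adjusted p = 0.0336). Cyp4a14, a fatty acid hydroxylase gene singled out after its values were seen, was also below 0 (-1.88 ± 1.76, SE; limma adjusted p = 0.585), and its libraries overlapped. Cpt1a, the carnitine palmitoyltransferase of liver, had 0.00 ± 0.10, and Cpt1b, the form of muscle and brown fat, 3.29 ± 0.70 from low values of 4.61 and 3.63 in WT (adjusted p = 0.996 and 0.0825). Genes held by more than 1 list, such as Cpt1b, Pdk4 and Acadm here and Cd36 and Acsl1 among PPARγ targets, were counted in each.

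The median change of PPARγ targets was 0.18 on the log2 scale, and it was 0.08 when WT replicate 2 and 0.04 when FLCNKO replicate 2 was left out. Of 20 measured, 1 rose and 0 fell (0.98% and 0.614% of all genes). At an unadjusted p under 0.05 limma put 4 higher and 2 lower, against 12.1% and 10.3% of all genes. Fabp5, a fatty acid binding protein gene, had 13.03 and 12.93 in WT and 13.93 and 13.74 in FLCNKO (0.85 ± 0.12, SE; limma adjusted p = 0.0484). The glycerol and triglyceride synthesis genes Gpd1 and Agpat2 had 1.22 ± 0.17 and 1.33 ± 0.23, and the adipsin gene Cfd -1.13 ± 0.21 (adjusted p = 0.0505, 0.0625 and 0.0691). With any 1 library left out, or without the trend, none of the target genes of the 3 lists was called.

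**Figure D4:**
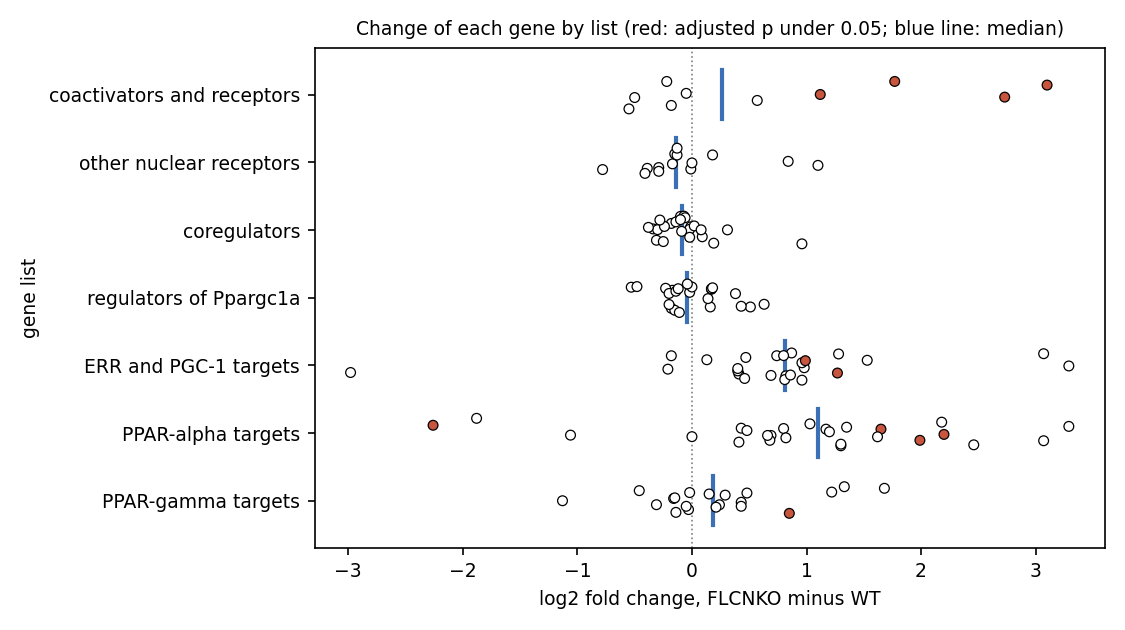
Log2 fold change (horizontal axis, FLCNKO minus WT) of every measured gene of 7 lists (vertical axis); points are genes, red where the adjusted p was under 0.05, and a blue line marks each median. The medians of the ERR and PGC-1 targets (0.81) and the PPARα targets (1.10) lie right of those of the other nuclear receptors (-0.14), coregulators (-0.09) and regulators of Ppargc1a (-0.04).

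Markers of other cells in the tissue were read beside these results, since in bulk tissue fewer cells of a type and less RNA per cell cannot be told apart. Brown and beige adipocytes and muscle fibres both express Ppargc1a, Esrrg and Ppara. The summed level of 10 brown and beige markers (log2 of the sum) was 14.70 and 14.25 in WT and 17.69 and 16.42 in FLCNKO. Of these, 2 were called higher and 0 lower (0.98% and 0.614% of all genes). In all, 8 had log2 fold changes above 0, and no marker was at 0 in any library. Without overlap, 6 were higher and 1 lower, against 29.2% and 25.4% of all genes. The 1 that was lower was Ebf2 (-0.67 ± 0.12, SE, limma adjusted p = 0.0629). Prdm16, counted among the 8, had 0.02 ± 0.13, and Dio2 had -0.08 ± 0.97. Ucp1 had 10.59 and 7.42 in WT and 13.79 and 10.06 in FLCNKO, so its groups overlapped (limma adjusted p = 0.336). In FLCNKO the brown and beige sum was higher in replicate 1 than in replicate 2 by 1.27, as were Esrrg by 0.70 and Ppara by 0.21. Ppargc1a and Ppargc1b were lower there, by gaps of 0.11 and 0.06. In WT the sum was also higher in replicate 1, as was Esrrg (7.66 and 7.27). Ppara (9.65 and 9.88), Ppargc1a (9.53 and 9.74) and Ppargc1b (8.48 and 9.01) were lower in WT replicate 1 than in WT replicate 2. The part of the brown and beige markers in the members' changes was not tested.

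The summed level of 18 skeletal muscle markers was 17.57 and 14.58 in WT and 16.47 and 13.55 in FLCNKO. It thus differed by 2.99 within WT and 2.92 within FLCNKO, and all 18 markers had log2 fold changes below 0, with 0 called. Acta1 was at 13.29 and 13.32 in FLCNKO and made up most of the sum in replicate 2. The library medians of the 18 markers were 12.66 and 9.75 in WT and 11.79 and 5.42 in FLCNKO. By the median, the FLCNKO libraries thus lay further apart than by the sum. Within groups Ppara differed by 0.22 and 0.21, Ppargc1a by 0.21 and 0.11, Ppargc1b by 0.53 and 0.06 and Esrrg by 0.39 and 0.70 between the same libraries. The part of the muscle markers in the members' values was not tested. Among the receptor and coactivator targets, Ckmt2 and Perm1, which muscle expresses, were singled out after their values were seen. Like the muscle sum, both were higher in replicate 1 than in replicate 2 of each group. Ckmt2 had 10.17 and 6.58 in WT and 8.41 and 2.37 in FLCNKO. Perm1 was at 7.62 in WT replicate 1 and 8.53 in FLCNKO replicate 1 and lower in both second replicates. What part muscle had in the values of Ckmt2 and Perm1 was not tested.

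Markers of other cells were lower or similar in FLCNKO. For comparison, 0.614% of all genes were called lower. All 8 fibroblast markers had log2 fold changes below 0, with a median of -1.06 and 3 called lower, and their summed level was 20.03 and 19.89 in WT and 19.00 and 18.85 in FLCNKO. All 10 macrophage markers were below 0, with a median of -0.87, 2 called lower, and sums of 17.72 and 17.55 against 16.91 and 16.62. White adipocyte markers summed to 21.78 and 21.73 in WT and 21.51 and 21.47 in FLCNKO, with a median of -0.22 and 0 of 10 called. Endothelial markers had a median of 0.06 (0 of 8 called) and sums of 15.34 and 15.28 against 15.17 and 15.53. Of 6 epithelial markers 3 were measured, 1 of them called lower (Trp63), with sums of 10.42 and 11.24 against 8.99 and 9.22. Their part in the members' changes was not tested.

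**Figure D5:**
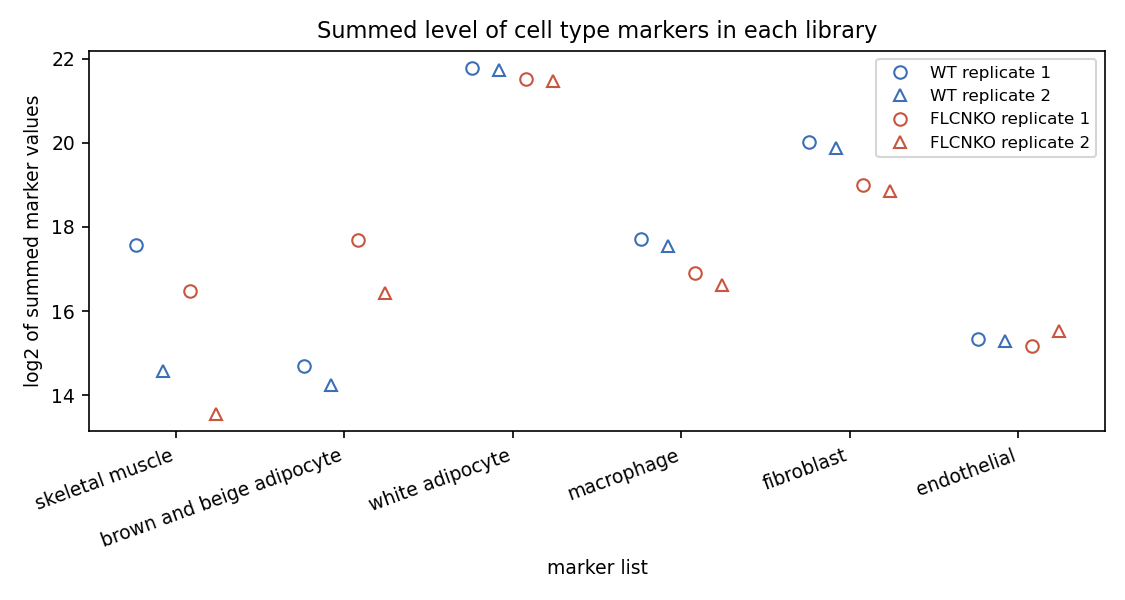
Log2 of the summed values of the markers of 6 cell types (horizontal axis) in each library (vertical axis), with WT in blue, FLCNKO in red, circles for replicate 1 and triangles for replicate 2. The muscle sum differs by 2.99 and 2.92 between libraries of the same group, the brown and beige sum is higher in both FLCNKO libraries, and the fibroblast and macrophage sums are lower.

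For each member that rose, the genes with the most similar profile were found among 11255 genes with a mean of at least 8, as the Euclidean distance over the 4 libraries of values taken relative to the WT mean. Closest to Ppargc1a were Smyd4 (distance 0.032), 1190007I07Rik (0.0757) and Tbc1d24 (0.0789). Smyd4 had 8.57 and 8.79 in WT and 9.75 and 9.83 in FLCNKO. Closest to Ppargc1b were Sh3bgrl2 (0.267), Krt222 (0.329) and Shmt1 (0.351), the gene of cytosolic serine hydroxymethyltransferase. Closest to Esrrg were Otop1 (0.159), a proton channel gene of brown fat, Chchd10 (0.263), of the mitochondrial intermembrane space, and Mfsd4b1 (0.367). Otop1 had 10.57 and 10.09 in WT and 13.30 and 12.61 in FLCNKO. Closest to Ppara were Hephl1 (0.422), S100b (0.45) and Sorcs2 (0.541). The filter used the mean over all 4 libraries. Krt222, Mfsd4b1, Hephl1 and Sorcs2 were below 8 in both WT libraries and passed it only through their FLCNKO values. These distances rest on 4 libraries and are a description only.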

How the data were processed

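RNA was measured in 2 WT and 2 FLCNKO libraries, grouped by their titles. The authors deposited 1 log2 expression value per Ensembl gene and library. Per the submitters' processing notes STAR, limma and mm9 were used, with no version stated; no source used here gives the counter, the annotation or strandedness. The values share nearly the same distribution in all libraries, so a shift common to most genes cannot be seen, and read counts and depths are unknown.

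Symbols were matched for 13592 of 13677 genes. All genes were fitted with limma 3.58.1 (R 4.3.3) on group alone, with variances moderated on a mean trend (residual degrees of freedom 2, prior 3.09), two-sided, no filter, Benjamini-Hochberg threshold 0.05; the code was tested on simulated data. The members and lists were chosen with earlier results of these data known. Named genes were the members, Flcn, the 4 genes of each list with the smallest p, all list genes called, and the 3 nearest profiles of each called member; some genes that this rule names are not reported here. Rxrb, Cpt1a, Cpt1b, Ucp1, Ebf2, Prdm16, Dio2, Adipoq and the genes said to be singled out were named outside it, after their values were seen. Of list genes, Esrrb, Prmt1, Fgf21, Krt5, Krt14 and Epcam had no matching value, and Gyk was read as Gk. Lengths came from GENCODE M21 and promoters from RefSeq (GRCm38.p6), another build than mm9. Alternatives were other filters, scalings, variance moderations, array weights, a replicate block and leaving out each library. Figures used matplotlib 3.10.9.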

Additional observations from a re-analysis of the deposited data

How the results depend on the processing

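The 4 members called higher stayed at 4, with 0 called lower, under 7 of 8 alternatives that kept all libraries. One of these, the filter on a mean of at least 8, was passed by Esrrg through its FLCNKO values alone. Repeated quantile normalization and median centring are also among the 7. The deposited values already share nearly 1 distribution, so both could hardly move a call and test little. They called 216 and 217 genes, against 218. Without the mean-variance trend 0 members and 0 genes were called (limma; 1508 genes higher and 1194 lower at an unadjusted p under 0.05, 6 members among them). Without any 1 library 0 members and 0 genes were called, with 5 to 9 members at an unadjusted p under 0.05. Over all genes, against 218, robust estimation called 344 and the replicate block 842. Same-numbered libraries deviated together (correlation 0.363 across genes), but with 2 pairs the numbers do not show pairing; with the block the targets called were 9 against 2 for the ERR and PGC-1 list, 16 against 4 for PPARα and 3 against 1 for PPARγ, and no member's call changed. The filter on a mean of at least 8 called 4, 7 and 2 of these targets, and robust estimation 3, 8 and 2. Each of these 3 alternatives also called 1 other nuclear receptor, against 0. Single members changed sign only when a library was left out: Pprc1 ranged from -0.55 to 0.19, Nrip1 from -0.45 to 0.02 and Pparg from -0.33 to 0.24, and the median of the regulators of Ppargc1a from -0.05 to 0.04. The cause of these shifts was not tested, beyond fewer libraries in the fit. The differences of change between paralogues kept their sign in all 10 pairs without each library; a scaling by 1 constant per library cancels in them and tests nothing.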
